A study of Mus musculus with 47 samples.

Results

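The tau gene Mapt and 9 genes of kinases that act on tau, or of the activators of such a kinase, were followed in the brains of 3xTg mice. The 10 genes, Mapt, Gsk3a, Gsk3b, Cdk5, Cdk5r1, Cdk5r2, Fyn, Mark1, Mark2 and Ttbk1, were found by symbol and Ensembl identifier among the 55416 genes of each count table, and all 10 passed the filter on low counts in both sexes. The homozygous 3xTg mouse is a model of AD that carries mutant human APP and tau transgenes, which are driven by a neuronal Thy1 promoter cassette, and a mutant presenilin 1. Every group shares these alleles, and no group without them was sequenced. From 6 months of age and for 9 months, the mice ate an amino acid-defined Control diet or the same kind of diet restricted in isoleucine (IleR), leucine (LeuR) or valine (ValR), so that brains were taken at 15 months. The libraries analysed were, in males, 4 Control, 3 IleR, 3 LeuR and 4 ValR, and in females 6 Control, 5 IleR, 6 LeuR and 6 ValR. A library is named below by its diet and its labelled number (Control 4, for example). The labels do not say which libraries came from littermates or cage mates, and animals were randomised by cage, so p-values measure the spread between these libraries.

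Tau is a protein of axons that binds and stabilises microtubules, and it detaches from them when it is heavily phosphorylated. GSK3 (Gsk3a and Gsk3b encode its alpha and beta forms) and CDK5 are the proline-directed kinases best known for acting on tau, and CDK5 is active only when bound to p35 or p39, the products of Cdk5r1 and Cdk5r2. MARK1 and MARK2 phosphorylate the microtubule-binding repeats, TTBK1 is a neuronal tau kinase of the casein kinase 1 family, and FYN is a tyrosine kinase of the Src family that binds tau. Hyperphosphorylated tau is the main component of the neurofibrillary tangles of AD, and the level of an mRNA says nothing directly of the phosphorylation of the protein.

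RefSeq promoter sequences (GRCm38.p6, the 250 bases before the start site) matched 7 of the 10 genes, with no entry used for Mapt, Cdk5 and Cdk5r1. The promoter of Cdk5r2, of the 10 genes the one with the largest change in males, is shown with those of Gsk3a and Gsk3b, a kinase pair of which only the first gene passed the test. They lie at chr1:74854779-74855028 on the plus strand, chr7:25237852-25238101 on the minus strand and chr16:38088751-38089000 on the plus strand, and capitals mark a GC box (GGGCGG on either strand, which reads CCGCCC on the other).
Cdk5r2: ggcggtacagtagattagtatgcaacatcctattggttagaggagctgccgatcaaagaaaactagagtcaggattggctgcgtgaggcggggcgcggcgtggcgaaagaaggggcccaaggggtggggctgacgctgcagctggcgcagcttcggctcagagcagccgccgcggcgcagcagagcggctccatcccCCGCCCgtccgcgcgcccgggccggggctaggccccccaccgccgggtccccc
Gsk3a: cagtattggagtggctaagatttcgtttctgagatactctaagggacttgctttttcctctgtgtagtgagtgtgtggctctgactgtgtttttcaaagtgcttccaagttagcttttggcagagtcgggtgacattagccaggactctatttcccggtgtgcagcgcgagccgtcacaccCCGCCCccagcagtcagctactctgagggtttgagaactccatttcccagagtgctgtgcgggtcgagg
Gsk3b: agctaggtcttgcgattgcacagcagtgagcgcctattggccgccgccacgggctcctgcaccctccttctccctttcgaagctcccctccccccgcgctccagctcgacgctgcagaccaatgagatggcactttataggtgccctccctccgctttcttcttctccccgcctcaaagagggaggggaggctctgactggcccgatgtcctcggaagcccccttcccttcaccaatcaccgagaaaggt
The promoter of Cdk5r2 held 1 GC box and 2 CCAAT boxes (CCAAT, either strand) at a GC content of 68.8%. The promoter of Gsk3a held 1 GC box and 1 CCAAT box at 52.0% GC, and that of Gsk3b held no GC box, 3 CCAAT boxes and 1 TATAAA at 62.0% GC. This TATAAA lies on the opposite strand and reads TTTATA in the window shown. Among 32851 RefSeq promoters of the same length, 32.7% held a GC box, 33.8% a CCAAT box and 12.4% a TATAAA, and the median GC content was 52.4%. None of the 3 promoters held the cyclic AMP response element TGACGTCA, which 1.55% of all promoters held, or the EGR motif GCGTGGGCG, which 0.536% held. These matches describe the letters of the windows only.

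The total count per library ranged from 12682687 to 25722333 in males and from 10672599 to 21370973 in females, and the lowest count of any of the 10 genes in any library was 821. Levels are given as CPM, the count scaled to a common library total, after TMM normalization, which was done for each sex apart. According to the methods the RNA came from the left hemisphere, while a protocol in the labels mentions liver. The summed level of 6 liver genes was at most 9.69 CPM and that of 11 pan-neuronal genes was at least 4415 CPM. The brain regions in the libraries differed between male diets. The summed level of 12 cerebellar markers was 42.6 to 119 CPM in male Control, 1494 to 3935 in IleR, 273 to 1540 in LeuR and 1600 to 5052 in ValR. That of 14 forebrain markers was 760 to 2214 CPM in Control and 110 to 420 CPM in the 10 restricted male libraries. That of 15 brainstem and spinal cord markers was 0.726 to 9.55 CPM in Control, with 7 of them at 0 in every Control library (among them Hoxa2, Hoxa3 and Hoxc4), and 3.16 to 706 CPM in the restricted libraries. A hindbrain score, the mean log2 CPM of the first and last of these lists minus that of the forebrain list, summarises them. It was -7.19 to -4.39 in male Control, 1.58 to 4.24 in IleR, -3.65 to 4.67 in LeuR and 4.49 to 5.99 in ValR, so that no restricted male library lay within the Control range. The female diets overlapped, with medians of -5.22, -5.72, -5.47 and -4.84 for Control, IleR, LeuR and ValR.

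Per kilobase of exon, Cdk5r2 was the most abundant of the 10 genes in male Control, at 110.3 ± 27.9 CPM per kb (SD, n = 4). It was followed by Mapt at 79.8 ± 5.16, Cdk5r1 at 75.9 ± 18.6 and Gsk3a at 67.2 ± 6.77 CPM per kb. The ranges of these neighbours over the 4 libraries overlapped, that of Mapt (74.4 to 86.6) with that of Gsk3a (58.5 to 75.0) only at its lower end. Cdk5 followed at 35.8 ± 1.64 CPM per kb, apart from the genes above and below it, and then Fyn at 25.9 ± 1.57, Gsk3b at 25.6 ± 2.68, Mark1 at 24.5 ± 5.71, Ttbk1 at 15.9 ± 3.44 and Mark2 at 15.8 ± 2.72. Each of the last 5 overlapped its neighbours in this order, Mark1 and Ttbk1 through Control 4, the lowest library of both. In female Control the order of the first 6 was the same, from Cdk5r2 at 108 ± 38.7 to Fyn at 28.0 ± 1.55 CPM per kb (n = 6). Over all 14 male libraries Mapt (73.7 ± 7.11 CPM per kb) stood above Cdk5r2 (59.2 ± 36.7), whose level varied 4.18-fold between the highest and lowest library.

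**Figure D1:**
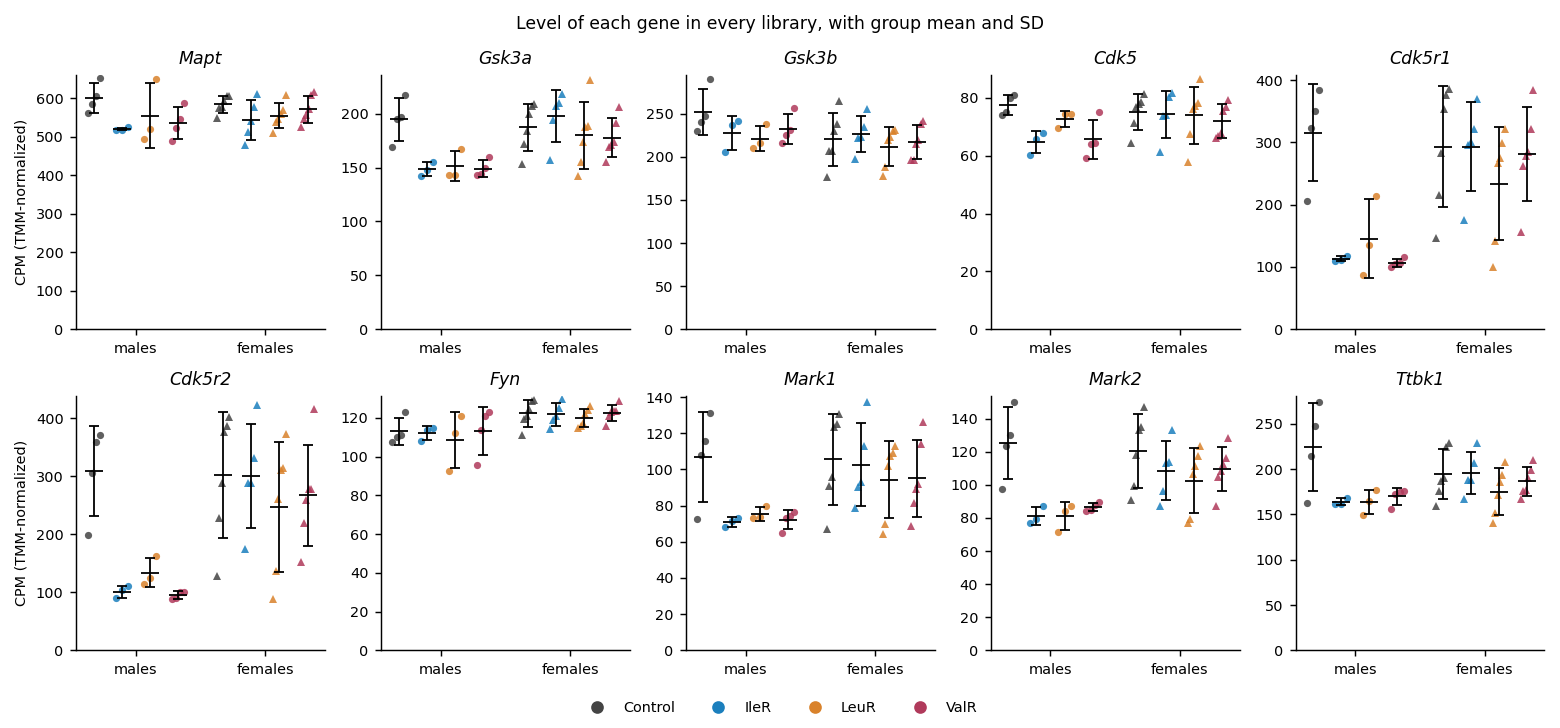
Each panel plots the TMM-normalized level of a gene in CPM (linear axis from 0) for every library, circles for males and triangles for females, coloured by diet, with lines for the mean and SD of each group. The restricted male groups lie under Control for Cdk5r2 and, except for LeuR 21 above Control 4, for Cdk5r1, while Fyn in the restricted male groups overlaps Control and every female group overlaps female Control.

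In males, 6 of the 10 genes were lower than Control under IleR, 4 under LeuR and 7 under ValR, and none was higher (edgeR's quasi-likelihood test, Benjamini-Hochberg adjustment over 22197 genes, threshold 0.05). Cdk5r2, Cdk5r1, Mark2 and Gsk3a passed under every diet, Mark1 and Ttbk1 under IleR and ValR, and Cdk5 under ValR. Over all genes tested, 8.68%, 6.33% and 12.4% were lower under IleR, LeuR and ValR, and 6.63%, 3.81% and 11.1% were higher. The median log2 fold change of the 10 genes was -0.42, -0.41 and -0.39, beside 0.04, 0.05 and 0.03 for all genes. A fit of LeuR and Control alone called 0 of the 10 genes and 0 of 21015 genes in edgeR (4607 at an unadjusted p under 0.05), with Cdk5r2 at -1.19 ± 0.23 (adjusted p = 0.0761), so the LeuR calls rest on the spread shared with the other diets. The 3 comparisons share the 4 Control libraries, and the genes were chosen with earlier results of these data known. In bulk tissue, fewer cells of a type and less RNA per cell cannot be told apart.

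The activators of CDK5 changed most. The level of Cdk5r2, which encodes p39, was 358, 371, 199 and 306 CPM in Control 1, 3, 4 and 5. It was 103, 110 and 90.1 CPM in IleR 13, 14 and 17, 115, 124 and 163 CPM in LeuR 19, 20 and 21, and 90.1, 101, 101 and 88.8 CPM in ValR 7, 9, 10 and 12. Every restricted library lay under every Control library, with Control 4 the lowest of the Control libraries and LeuR 21 the highest of the restricted ones. Cdk5r2 fell by 67.2% under IleR, with a log2 fold change of -1.61 ± 0.19 (SE; adjusted p = 0.000826, edgeR's quasi-likelihood test). Under LeuR it fell by 56.6%, at -1.20 ± 0.19 (adjusted p = 0.00443 in edgeR). Under ValR it fell by 69.2%, with a log2 fold change of -1.70 ± 0.17 (adjusted p = 8.36e-05 in edgeR).

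Cdk5r1, which encodes p35, the more widely studied of the activators, was at 384, 351, 206 and 323 CPM in Control 1, 3, 4 and 5. It was at 118, 110 and 112 CPM in IleR 13, 14 and 17, at 87.4, 135 and 214 CPM in LeuR 19, 20 and 21, and at 105, 100, 106 and 116 CPM in ValR 7, 9, 10 and 12. The IleR and ValR libraries all lay under Control, and LeuR 21 lay above Control 4. Cdk5r1 changed by -1.48 ± 0.26 (log2, SE) under IleR, -1.12 ± 0.25 under LeuR and -1.57 ± 0.23 under ValR, which in percent is -64.1, -53.9 and -66.2 (adjusted p = 0.00237, 0.0169 and 0.000433 in edgeR). LeuR 19, 20 and 21 lay in the order of their hindbrain scores of 4.67, 0.94 and -3.65, the lowest level at the highest score. The IleR libraries lay so too, while the ValR libraries did not, with the highest score (5.99) in ValR 7 and the lowest level in ValR 9. For Cdk5r2 the IleR libraries did not lie so, since IleR 14 had both the highest level and the highest score (4.24). Without Control 1, Control 3 or LeuR 19 the adjusted p of Cdk5r1 under LeuR was 0.0523, 0.0518 and 0.0644 in edgeR.

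Cdk5 itself, the catalytic subunit, moved far less than its activators. Its level was 74.0 to 81.1 CPM in Control, 60.4 to 67.8 in IleR, 69.7 to 74.4 in LeuR and 59.2 to 75.2 CPM in ValR, so that only IleR lay wholly under Control. Cdk5 passed the test under ValR alone, at -0.24 ± 0.08 (adjusted p = 0.0464 in edgeR), with IleR at -0.26 ± 0.09 (adjusted p = 0.0598 in edgeR) and LeuR at -0.09 ± 0.09 (adjusted p = 0.544 in edgeR). The difference between diets was not past the threshold, and the call under ValR held in 3 of the 14 fits that left out a library. It was lost without Control 1, 3 or 5, ValR 7, 10 or 12, IleR 13 or 14, or any LeuR library, with adjusted p up to 0.126 in edgeR.

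Of the GSK3 pair, Gsk3a fell and Gsk3b did not pass. Gsk3a was at 197, 217, 170 and 195 CPM in Control 1, 3, 4 and 5, at 147, 156 and 142 CPM in IleR 13, 14 and 17, at 144, 143 and 167 CPM in LeuR 19, 20 and 21, and at 144, 160, 150 and 143 CPM in ValR 7, 9, 10 and 12. Every restricted library lay under every Control library, by as little as the gap between LeuR 21 (167.5 CPM) and Control 4 (169.6 CPM). Gsk3a changed by -0.39 ± 0.10, -0.36 ± 0.10 and -0.39 ± 0.09 on the log2 scale under IleR, LeuR and ValR, in percent by -23.8, -22.3 and -23.5 (adjusted p = 0.0147, 0.0302 and 0.00650 in edgeR). The call was lost without IleR 17 under IleR (adjusted p = 0.0523 in edgeR) and without Control 1, 3 or 5 or LeuR 19 or 20 under LeuR (up to 0.128).

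Gsk3b, which encodes the form most often linked to tau, was at 229 to 290 CPM in Control, 205 to 241 in IleR, 210 to 237 in LeuR and 216 to 257 CPM in ValR, with overlap under each diet. Its log2 fold changes were -0.14 (95% interval -0.37 to 0.08), -0.19 (-0.41 to 0.03) and -0.12 (-0.32 to 0.09). The adjusted p values were 0.383, 0.263 and 0.427 in edgeR.

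Both MARK genes were lower. Mark2 was at 130, 150, 97.8 and 123 CPM in Control 1, 3, 4 and 5, at 76.9, 79.1 and 87.1 CPM in IleR 13, 14 and 17, at 71.5, 84.1 and 87.4 CPM in LeuR 19, 20 and 21, and at 84.2, 89.8, 87.8 and 84.9 CPM in ValR 7, 9, 10 and 12. Every restricted library lay under every Control library. Its log2 fold change was -0.63 ± 0.12 under IleR, -0.63 ± 0.12 under LeuR and -0.53 ± 0.11 under ValR (adjusted p = 0.00461, 0.00993 and 0.00419 in edgeR). Without LeuR 19 the change under LeuR was -0.55 (adjusted p = 0.0566 in edgeR).

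Mark1 was at 131, 116, 72.6 and 108 CPM in Control 1, 3, 4 and 5, and at 64.7 to 80.0 CPM in the 10 restricted male libraries. All restricted libraries were under Control 1, 3 and 5, and Control 4 lay among them, so the groups overlapped under each diet. Mark1 differed by -0.59 ± 0.15 (log2) under IleR (adjusted p = 0.0184 in edgeR), -0.50 ± 0.15 under LeuR (adjusted p = 0.0508) and -0.57 ± 0.14 under ValR (adjusted p = 0.00962). The IleR call was lost without Control 1 or 3 or IleR 14 or 17 (adjusted p up to 0.0679 in edgeR), and without Control 4 Mark1 passed under LeuR at -0.65 (adjusted p = 0.000649).

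Ttbk1 was at 248, 274, 162 and 214 CPM in Control 1, 3, 4 and 5, at 161 to 168 CPM in IleR, 150 to 177 in LeuR and 156 to 176 CPM in ValR. Control 4 again lay within the restricted range, and the other Control libraries lay above it. The log2 fold change of Ttbk1 was -0.46 ± 0.14, -0.46 ± 0.14 and -0.40 ± 0.13 under IleR, LeuR and ValR (adjusted p = 0.0450, 0.0569 and 0.0388 in edgeR). The calls were near the threshold, and in fits that left out a library they held in 4 of 14 under IleR and 6 of 14 under ValR. They were lost without Control 1, 3 or 5, ValR 7, 9 or 10 or IleR 14 under both diets, without IleR 13 or 17 or LeuR 19 under IleR, and without ValR 12 under ValR, with adjusted p up to 0.124 in edgeR. Without Control 4, Ttbk1 passed under LeuR at -0.58 (adjusted p = 0.00218 in edgeR).

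Mapt and Fyn did not pass under any diet. Mapt was at 606, 652, 561 and 586 CPM in Control 1, 3, 4 and 5, at 518, 518 and 524 CPM in IleR 13, 14 and 17, at 494.5, 519.7 and 650.0 CPM in LeuR 19, 20 and 21, and at 523, 488, 587 and 546 CPM in ValR 7, 9, 10 and 12. IleR lay under every Control library, while LeuR 21 lay just under Control 3, the highest library, and ValR 10 above Control 4 and 5. The log2 fold change of Mapt was -0.21 (95% interval -0.44 to 0.03) under IleR, -0.12 (-0.35 to 0.12) under LeuR and -0.17 (-0.38 to 0.05) under ValR, with adjusted p = 0.222, 0.532 and 0.266 in edgeR. The reads were aligned to the mouse genome only, and the share of the Mapt count that came from the human tau transgene was not measured. Fyn was at 108 to 123 CPM in Control and 92.7 to 123 CPM in the restricted libraries. Its log2 fold changes were -0.01 (95% interval -0.24 to 0.22), -0.06 (-0.29 to 0.17) and 0.00 (-0.21 to 0.22), with adjusted p of at least 0.769 in edgeR.

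Counted without a test, every library of a restricted diet lay under every Control library for 6 of the 10 genes under IleR (Mapt, Gsk3a, Cdk5, Cdk5r1, Cdk5r2 and Mark2), 3 under LeuR (Gsk3a, Cdk5r2 and Mark2) and 4 under ValR (Gsk3a, Cdk5r1, Cdk5r2 and Mark2). Of all genes, 14.5%, 9.48% and 13.6% were so placed.

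**Figure D2:**
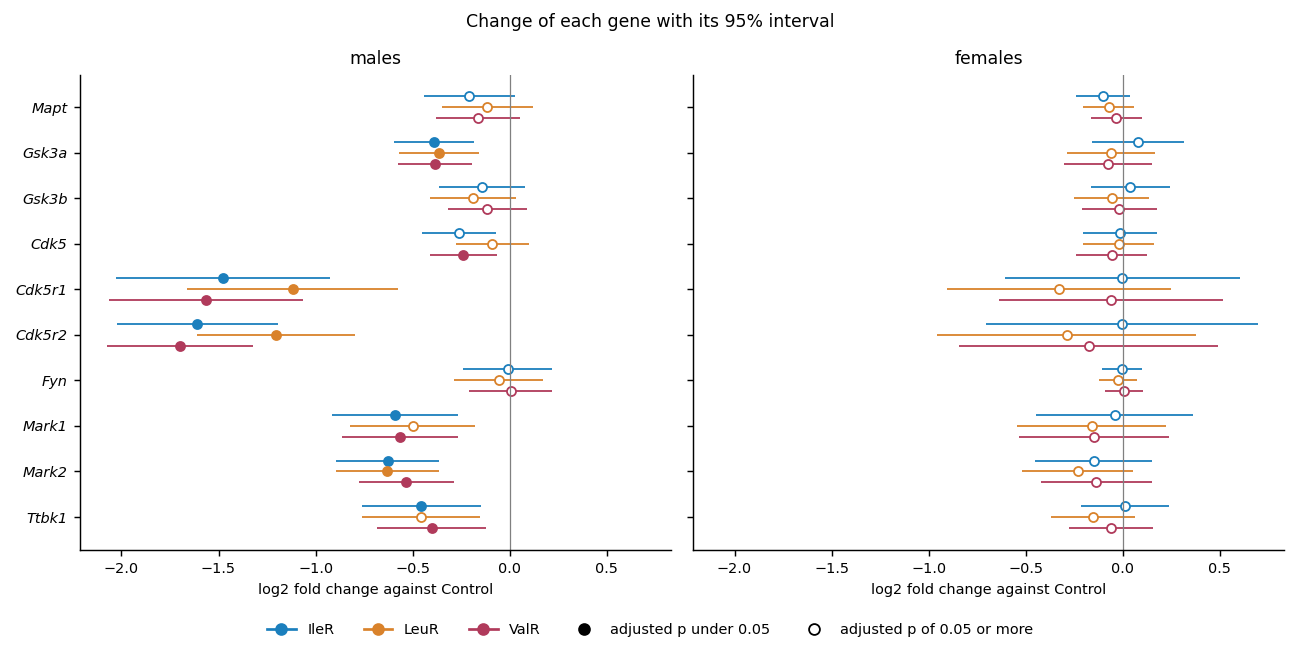
Log2 fold change of each gene against Control (x axis) with its 95% interval, for IleR, LeuR and ValR, in males on the left and females on the right, where a filled point has an adjusted p under 0.05 in edgeR. In males Cdk5r1 and Cdk5r2 lie between -1.70 and -1.12 and the other called genes between -0.63 and -0.24, and no female point is filled.

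The changes in males were also fitted with the hindbrain score. With that score as a covariate in the fit, 0 of the 10 genes passed under each diet, and of all 22197 genes 3, 14 and 0 passed under IleR, LeuR and ValR. The change of Cdk5r1 became 0.053 ± 0.24, -0.08 ± 0.19 and 0.29 ± 0.28, and that of Cdk5r2 became -0.84 ± 0.32, -0.66 ± 0.27 and -0.78 ± 0.37 (adjusted p = 0.582, 0.513 and 0.589 in edgeR). Gsk3a became -0.10, -0.15 and -0.03, Mark2 -0.22, -0.33 and -0.04, and Mapt turned to 0.21, 0.18 and 0.34, none of which passed. Since no restricted male library had a score within the Control range, diet and brain region cannot be told apart in males by this fit. The standard errors were wider than without the score, except those of Cdk5r1 under IleR and LeuR, which were narrower.

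The summed level of 12 oligodendrocyte markers was 4842 to 10111 CPM in male Control and 6800 to 18828 CPM in the restricted libraries, and 0 of the 12 passed under any diet. Of 9 astrocyte markers 3, 2 and 4 were higher and 1, 1 and 1 lower under IleR, LeuR and ValR, and of 8 microglia markers 2, 0 and 4 were lower and none was higher. Of 11 pan-neuronal markers 0, 1 and 1 were higher and 2 under each diet lower, with a summed level of 5476 to 7275 CPM in Control and 4415 to 6960 CPM in the restricted libraries. None of 5 blood, 7 choroid plexus or 6 endothelial markers passed, and the summed level of the blood markers was 581 to 4118 CPM in Control and 2525 to 19630 CPM in LeuR. The part of the astrocyte, microglia and blood markers in the changes of the 10 genes was not tested. The neuron minus oligodendrocyte score, the difference between the mean log2 CPM of the pan-neuronal and the oligodendrocyte lists, was 0.92 to 1.87 in Control, 0.32 to 0.62 in IleR, 0.36 to 0.91 in LeuR and 0.57 to 0.79 in ValR. With this score as a covariate 0, 0 and 2 of the 10 genes passed under IleR, LeuR and ValR, and of all 22197 genes 1, 2 and 970 were higher and 13, 0 and 1221 lower. The 2 were Cdk5r1 at -1.06 ± 0.23 (adjusted p = 0.0140 in edgeR) and Cdk5r2 at -1.33 ± 0.18 (adjusted p = 0.00281 in edgeR). Cdk5r2 under IleR was at -1.11 ± 0.22 (adjusted p = 0.0679 in edgeR). For this score too, no restricted male library lay within the Control range, so that diet and the score cannot be told apart by this fit.

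**Figure D3:**
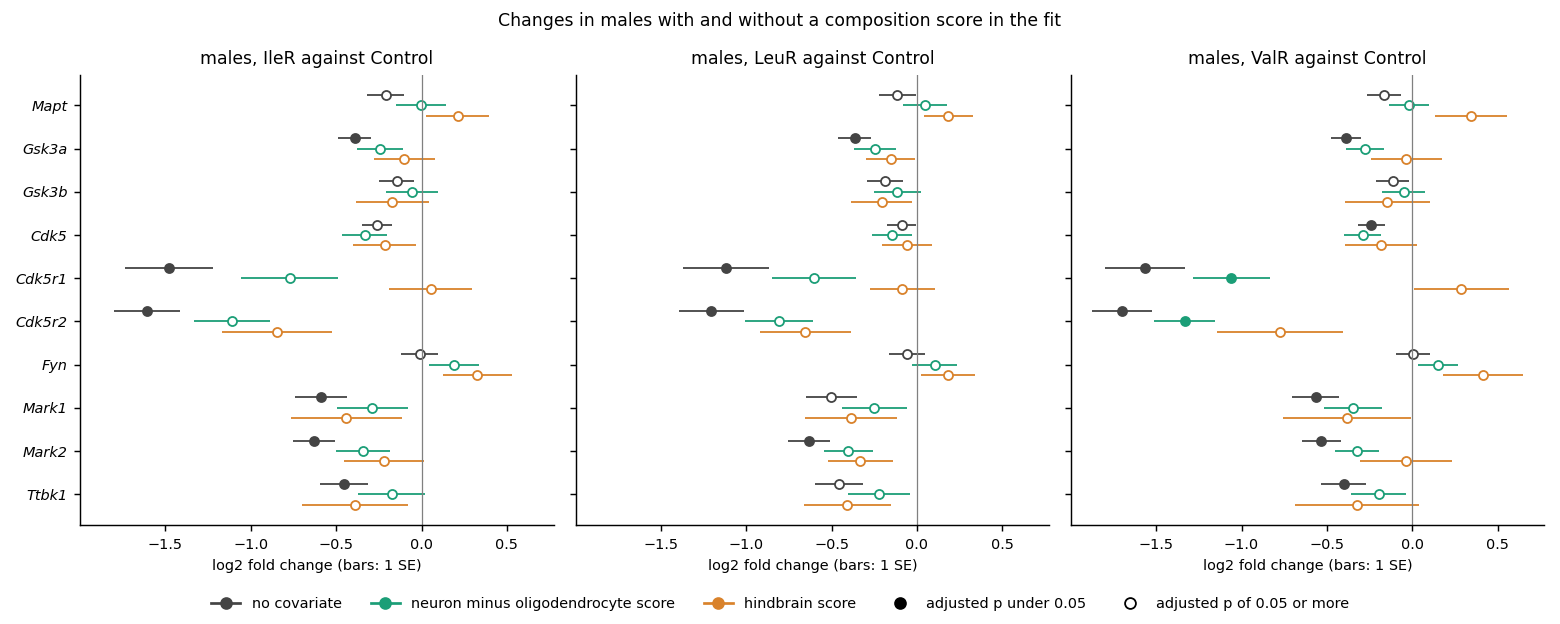
Log2 fold change of each gene in males (x axis, bars of 1 SE) under each diet, from fits with no covariate, with the neuron minus oligodendrocyte score and with the hindbrain score, where a filled point has an adjusted p under 0.05 in edgeR. With the hindbrain score no point is filled and Cdk5r1 lies at 0.053, -0.08 and 0.29.

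The restricted diets were also compared with each other in males, and 0 of the 10 genes passed in any of the 3 pairs. In edgeR 0% of all genes passed between IleR and LeuR, 2.75% between ValR and LeuR and 0% between ValR and IleR. At an unadjusted p under 0.05 these pairs had 2512, 5294 and 628 genes. DESeq2 called 79, 1483 and 0 genes higher and 28, 1064 and 7 lower, none of them of the 10. A fit of ValR and LeuR alone called 0 genes in edgeR. The nearest of the 10 genes was Cdk5r2, lower under ValR than LeuR by -0.49 on the log2 scale (95% interval -0.89 to -0.10, adjusted p = 0.124 in edgeR). Cdk5r1 was at -0.45 (-0.97 to 0.08; adjusted p = 0.284 in edgeR) in the same pair. Between IleR and LeuR, Cdk5r2 was at -0.41 (-0.83 to 0.02; adjusted p = 0.464 in edgeR). Between ValR and IleR the differences of the 10 genes ran from -0.09 to 0.10. LeuR 21 carried the highest Cdk5r1 and Cdk5r2 of the restricted libraries and the lowest hindbrain score among them, -3.65. Without Control 4, 1 of the 10 genes passed in 1 of the pairs.

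In females 0 of the 10 genes passed under any diet, and neither did any of the 20344 genes (0% higher and 0% lower under each diet in edgeR, with 577, 820 and 777 genes at an unadjusted p under 0.05 for IleR, LeuR and ValR, and 0 of the 10 genes among them). DESeq2 and limma voom also called 0 of the 10, and of all genes DESeq2 called 8, 1 and 0 and limma voom 1, 0 and 0. Cdk5r1 was at 146 to 385 CPM with a median of 318 in Control, at 176, 296, 301, 322 and 370 CPM in the IleR libraries, at 100 to 321 CPM with a median of 271 in LeuR, and at 156 to 384 CPM with a median of 281 in ValR. Every restricted group overlapped Control, and the lowest libraries were Control 30 (146 CPM), IleR 41 (176 CPM), LeuR 45 and 48 (100.01 and 141 CPM) and ValR 36 (156 CPM). The log2 fold change of Cdk5r1 was 0.00 (95% interval -0.61 to 0.60) under IleR, -0.33 (-0.90 to 0.25) under LeuR and -0.06 (-0.64 to 0.51) under ValR.

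Cdk5r2 was at 128 to 402 CPM with a median of 333 in female Control, at 174, 287, 288, 332 and 422 CPM in the IleR libraries, at 87.9 to 372 CPM with a median of 286 in LeuR, and at 152 to 416 CPM with a median of 269 in ValR. The lowest library of each group for Cdk5r1 and Cdk5r2 was the same, Control 30, IleR 41, LeuR 45 and ValR 36, and these had the highest hindbrain scores of their groups, at 0.04, -0.80, 5.05 and 1.02. The log2 fold change of Cdk5r2 was -0.01 (95% interval -0.70 to 0.69), -0.29 (-0.96 to 0.38) and -0.18 (-0.84 to 0.49). The other kinase genes lay between -0.23 (Mark2 under LeuR) and 0.08 (Gsk3a under IleR).

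Mapt in females was at 549 to 606 CPM with a median of 585 in Control, at 479, 512, 542, 578 and 611 CPM in the IleR libraries, at 510 to 607 CPM with a median of 552 in LeuR, and at 526.3 to 616 CPM with a median of 565 in ValR. The groups overlapped throughout, with changes of -0.10 (95% interval -0.24 to 0.04), -0.07 (-0.20 to 0.06) and -0.03 (-0.16 to 0.10). Fyn was the steadiest of the 10 genes in females, at 111 to 130 CPM over all 23 libraries (coefficient of variation 4.24%), where Cdk5r2 varied by 34.6% and Cdk5r1 by 30.1%. Between restricted diets none of the 10 genes passed in females, and edgeR called 0% of all genes for each pair, with 1250, 1014 and 847 genes at an unadjusted p under 0.05 for IleR against LeuR, ValR against LeuR and ValR against IleR. For these pairs DESeq2 called 11, 0 and 5 genes higher and 12, 2 and 13 lower, none of them of the 10.

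Whether a diet's change differed between the sexes was tested in a fit of all 37 libraries and 22465 genes. Of the 10 genes, 2 passed, both lower in males under ValR, where 3.57% of all genes were lower. Cdk5r1 differed by -1.52 ± 0.41 on the log2 scale (adjusted p = 0.0329 in edgeR) and Cdk5r2 by -1.53 ± 0.44 (adjusted p = 0.0434). Under IleR the difference was -1.47 ± 0.44 for Cdk5r1 and -1.60 ± 0.47 for Cdk5r2 (adjusted p = 0.0869 and 0.0873 in edgeR, 0.0979% of all genes lower). Under LeuR it was -0.77 ± 0.43 and -0.89 ± 0.46 (adjusted p = 0.455 and 0.421 in edgeR, 0% of all genes lower, with 2911 at an unadjusted p under 0.05). With the hindbrain score as a covariate the ValR differences turned to 0.12 ± 0.19 and 0.14 ± 0.28, and no gene of the 10 passed. The calls of the 2 genes were both lost with limma voom (adjusted p = 0.0566 and 0.0638) and without any of 12 libraries: female Control 27 and 30, female ValR 33, 34 and 35, male Control 1, 3 and 5, and each male ValR library. The call of Cdk5r2 alone was also lost without female Control 29, female ValR 32, female IleR 38, 40 or 42, or male IleR 13 or 14.

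Among the 23 female libraries, where the score overlapped between diets, 8 of the 10 genes were lower in libraries of a higher hindbrain score (20 relations tested with the score below, two-sided permutation test with 100000 resamples, Benjamini-Hochberg adjustment). Cdk5r1 had Pearson's r = -0.94 and Spearman's rho = -0.88, and Cdk5r2 r = -0.93 and rho = -0.83 (permutation p = 1e-05 for each, the smallest these permutations can give, adjusted p = 2.86e-05 for r). Without the 2 libraries farthest from the median score r was -0.89 and -0.87, and with the mean of each diet removed it was -0.95 and -0.93. The slope was -0.15 for Cdk5r1 and -0.17 for Cdk5r2 in log2 CPM per unit of the score. Within Control r was -0.90 for both genes, and within LeuR and ValR it ran from -0.97 to -0.94 (n = 6 in each), while IleR held 5 libraries, too few for a correlation. As a description, 8.55% of the 20344 genes tested in females had r at or under -0.79, that of the weakest of the 8 genes, and 7.04% had r at least as far above 0. Among the 11031 genes of a mean log2 CPM of at least 3 these shares were 13.6% and 9.79%.

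The slope was shallower for 6 of the kinase genes, from -0.087 for Mark1 to -0.037 for Cdk5 in log2 CPM per unit of the score. Mark1 had r = -0.87 (rho -0.85), Mark2 -0.85 (rho -0.83), Gsk3a -0.81 (rho -0.74), Gsk3b -0.81 (rho -0.70), Cdk5 -0.81 (rho -0.69) and Ttbk1 -0.79 (rho -0.68), with an adjusted permutation p of r of at most 5e-05. These 6 kept r between -0.84 and -0.69 without the 2 farthest libraries. Mapt had r = -0.38 and rho = -0.37 (permutation p = 0.0723 and 0.0807, adjusted 0.0964 and 0.108), and -0.15 without the 2 farthest libraries. Fyn had r = 0.06 and rho = -0.05 (permutation p = 0.783 and 0.829). With library totals alone as the scaling, the r of Fyn was 0.69 and that of Mapt 0.14, so that the sign for Mapt and the size for Fyn depended on the scaling, while the other 8 genes kept r between -0.93 and -0.63. The genes of the score and the 10 genes were measured in the same libraries.

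**Figure D4:**
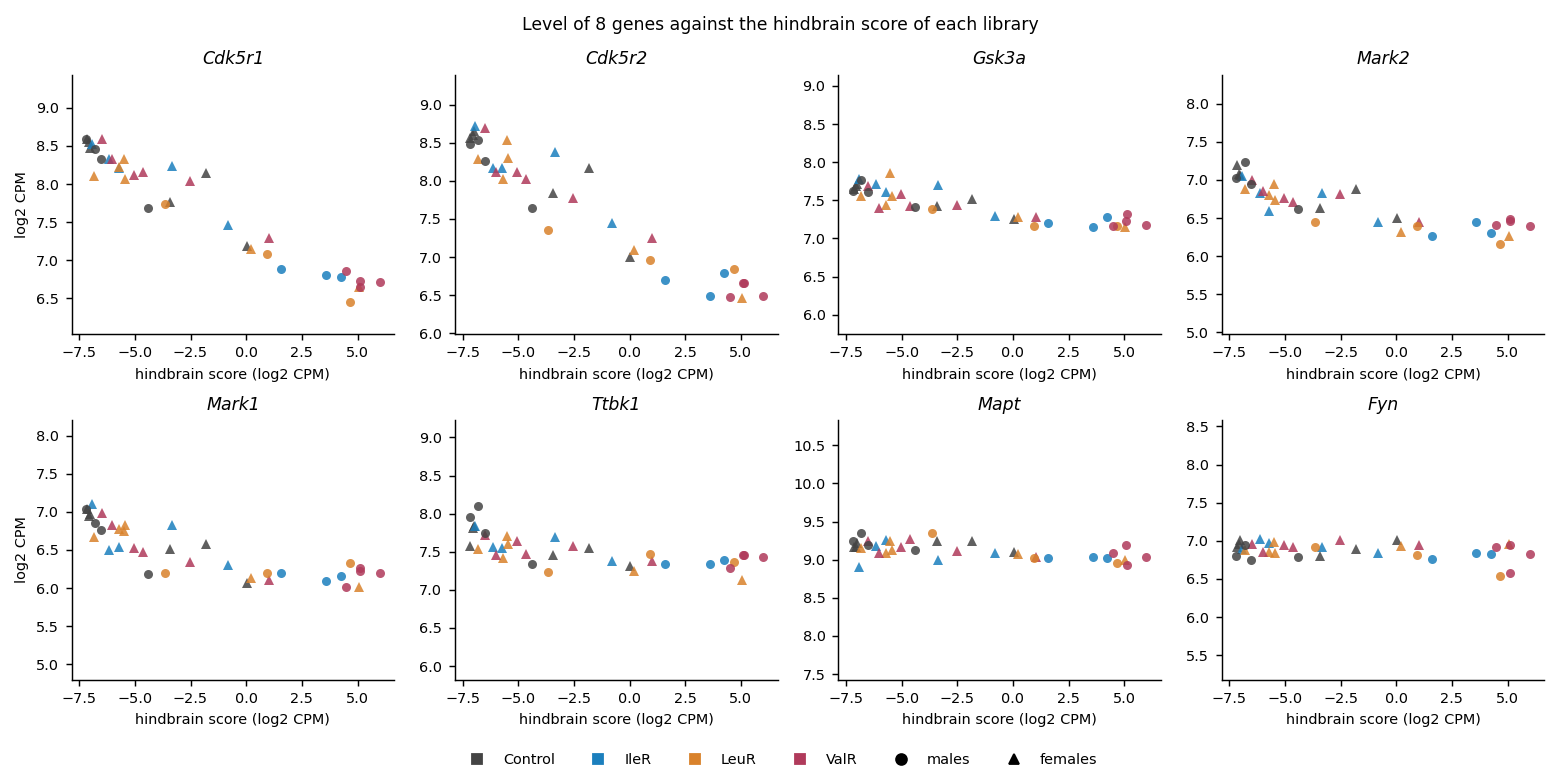
Level of 8 of the 10 genes in log2 CPM (y axis, the same span in each panel) against the hindbrain score (x axis) of each library, circles for males and triangles for females, coloured by diet. Cdk5r1 and Cdk5r2 fall along the score in both sexes, while Fyn lies flat, and male Control and restricted libraries occupy different ends of the score.

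With the neuron minus oligodendrocyte score, 3 of the 10 genes rose in the female libraries by the same test. Ttbk1 had r = 0.62 (rho 0.73), Gsk3a r = 0.56 (rho 0.63) and Mark2 r = 0.50 (rho 0.58), with adjusted permutation p of 0.00362, 0.00968 and 0.0295 for r. Without the 2 farthest libraries r was 0.72, 0.61 and 0.64, and 6 of the 10 genes passed. With the mean of each diet removed r was 0.60, 0.58 and 0.45, and 2 of the 10 genes passed. Of the 20344 genes tested in females, 5.86% had r of at least 0.50, that of Mark2, and 7.44% had r at least as far under 0. Cdk5r1 (r = 0.43, adjusted permutation p = 0.0599) did not pass. Cdk5r2 did not pass in r (0.45, adjusted permutation p = 0.0506) and passed in rho (0.55, adjusted permutation p = 0.0133).

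Ratios within a library do not depend on the scaling between libraries, and 3 pairs were compared with a two-sided exact permutation test (18 tests). The ratio of Gsk3a to Gsk3b in counts per kb was 2.31, 2.51, 2.67 and 3.07 in male Control and 2.11, 2.17, 2.19 and 2.24 in ValR. The ValR libraries all lay lower (exact permutation p = 0.0286, the smallest that 4 against 4 libraries allow, adjusted p = 0.514). The ratio of Cdk5r1 to Cdk5r2 was 0.64 to 0.72 in male Control and 0.51 to 0.88 in the restricted libraries. The ratio of Mark1 to Mark2 was 1.35 to 1.84 in male Control and 1.39 to 2.04 in the restricted libraries. None of the 18 tests passed. In males neither 3 against 4 nor 4 against 4 libraries can give an exact permutation p under 0.0286. After adjustment over the 18 tests the male tests alone could not pass, so they do not show that the ratios were unchanged.

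**Figure D5:**
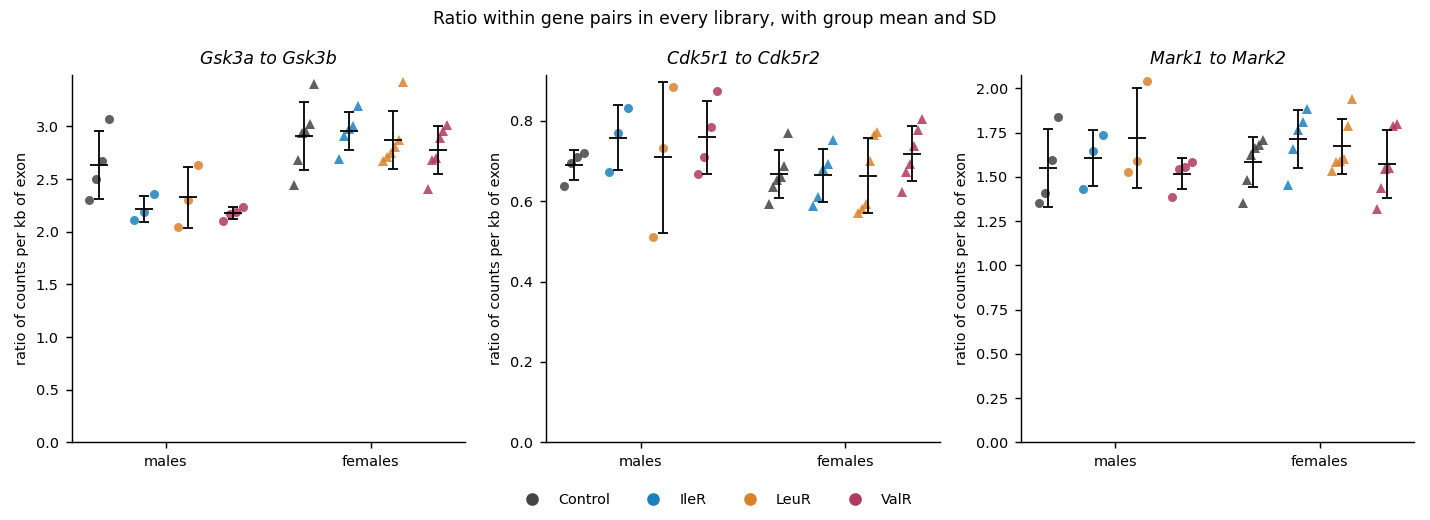
Ratio of counts per kb of exon within 3 pairs of genes (y axis from 0) in each library, with the mean and SD of each group, circles for males and triangles for females. The male ValR ratios of Gsk3a to Gsk3b, 2.11 to 2.24, lie under the male Control ratios, 2.31 to 3.07, and the other pairs overlap.

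Other genes around tau were counted in lists. Of 25 other tau kinases, 7, 10 and 8 were lower in males under IleR, LeuR and ValR and 1, 0 and 1 were higher, with median log2 fold changes of -0.24, -0.33 and -0.22. Camk2a, the alpha subunit of the calcium/calmodulin-dependent kinase CaMKII and an abundant forebrain protein, fell most, with log2 fold changes of -3.73, -2.62 and -4.54 (adjusted p = 0.00494, 0.0318 and 0.000466 in edgeR). Nuak1 fell by 1.01 on the log2 scale under LeuR (adjusted p = 0.0183 in edgeR). Ttbk2, the close relative of Ttbk1, rose by 0.70 under IleR and 0.73 under ValR (adjusted p = 0.00882 and 0.00262 in edgeR), the opposite direction from Ttbk1.

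Of 20 genes of tau phosphatases and their regulators, 9, 6 and 11 were lower under IleR, LeuR and ValR and none was higher, with medians of -0.30, -0.21 and -0.33. The calcineurin subunits led: Ppp3r1 was at -1.31, -1.12 and -1.28 on the log2 scale under IleR, LeuR and ValR, and Ppp3ca at -1.20, -1.46 and -0.95, all called (adjusted p of at most 0.00821 in edgeR). Of 14 regulators of the kinases, 1, 1 and 2 were higher and 3, 1 and 2 lower, with medians of 0.03, -0.02 and 0.17. Ptpn5, which encodes the FYN phosphatase STEP, fell, at -1.54 under IleR and -1.96 under ValR. Capn2, a calpain that can cleave p35, rose by 0.42 and 0.51 under the same diets, and Csk, which holds Src kinases inactive, rose by 0.72 under LeuR and 0.49 under ValR (adjusted p between 0.000982 and 0.0388 in edgeR for these 3 genes). Pak1 fell, at -0.40 under IleR and -0.57 under LeuR, and so did Stradb, at -0.37 under ValR.

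Of 17 microtubule-associated proteins and tubulins, 2, 1 and 3 were higher and 3, 1 and 5 lower, with medians of -0.24, 0.10 and -0.19. Stmn2 rose by 0.51, 0.42 and 0.73 while Stmn1 fell, at -0.85, -0.47 and -1.08, both genes of the stathmin family of tubulin-binding proteins (adjusted p of at most 0.0493 in edgeR). Dcx, a marker of immature neurons, fell, at -1.20 under IleR and -1.60 under ValR, Map4 rose by 0.40 under IleR and Tubb4a by 0.43 under ValR. Of 19 genes of tau folding, modification and clearance, 3, 2 and 2 were higher and 1, 2 and 3 lower, with medians of -0.13, 0.02 and -0.04. The co-chaperone gene Bag3 rose by 1.08, 1.14 and 1.25 (adjusted p = 0.0169, 0.0206 and 0.00337 in edgeR). Fkbp4 rose by 0.45 under LeuR and 0.46 under ValR, and Ctsd, the lysosomal protease cathepsin D, by 0.82 under IleR. Oga fell, at -0.38 under LeuR and -0.36 under ValR, and so did Crebbp, at -0.59 under LeuR. Over all genes, 8.68%, 6.33% and 12.4% were lower under IleR, LeuR and ValR, and 6.63%, 3.81% and 11.1% were higher. The list counts were not tested against these shares. The brain region markers differed between the male diets as given above, and no list gene passed in females.

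By Pearson's r of log2 CPM, as a description with no test, the genes closest to Mapt over the 14 male libraries were Fem1b (0.947), Rian (0.945), Gabbr1 (0.937), Zdhhc2 (0.927) and Hdac2 (0.926) among 11160 genes. Over the 23 female libraries they were Dhdds (0.809), Haus2 (0.803), Esd (0.794), Lrrc57 (0.792) and Noc2l (0.783) among 11022 genes. In males the closest gene was Cacnb3 for Cdk5r1 (0.994), Add2 for Cdk5r2 (0.991), Zdhhc8 for Gsk3a (0.986), Pafah1b1 for Gsk3b (0.847), Tmem50a for Cdk5 (0.968), Lhpp for Fyn (0.922), Scube1 for Mark1 (0.981), Egr1 for Mark2 (0.985) and Abhd17a for Ttbk1 (0.980). In females it was Pcdhgc5 for Cdk5r1 (0.987), Dmtn for Cdk5r2 (0.989), Epn1 for Gsk3a (0.955), Btrc for Gsk3b (0.921), Clip2 for Cdk5 (0.898), Pmpca for Fyn (0.790), Arpp19 for Mark1 (0.967), Rnf44 for Mark2 (0.964) and Lmtk2 for Ttbk1 (0.954). Among the 10 genes the closest pair was Cdk5r1 and Cdk5r2 in both sexes, at 0.964 in males and 0.972 in females. The libraries share diet and brain region makeup, which enter every one of these values.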

How the data were processed

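Gene expression was measured by RNA sequencing of brain from 3xTg mice. According to the labels, reads were aligned to GRCm38.p5, and the authors deposited expected counts for Ensembl genes in each library, without normalization. The aligner is not given in the sources used here. A stranded total RNA kit is named in the labels and in the methods, and the latter give its input as mRNA. Of 24 labelled male libraries, 10 are not analysed here, for reasons not known library by library. The methods mention the removal of clear outliers. The authors also deposited log2 fold changes and p-values of their own comparisons, which were not used.

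The expected counts, rounded to whole numbers, were tested in R 4.3.3 by edgeR 4.0.16 (TMM scaling, quasi-likelihood test, 1 fit for the 4 diets of a sex). A gene was tested if at least 1 diet had a count of 1 or more in all its libraries, and p-values were adjusted over all tested genes by the Benjamini-Hochberg method (threshold 0.05). Log2 CPM used a prior count of 2. Alternatives were DESeq2 1.42.0, limma 3.58.1 (voom), other scalings and filters, score covariates and leaving out each library. The fits were tested on simulated data. Gene positions and exon lengths came from GENCODE M21 (GRCm38), where Mapt lies at chr11:104231390-104332090, Cdk5r1 at chr11:80477023-80481184 and Cdk5r2 at chr1:74854934-74857732, all on the plus strand. Whether counting used strand is not given in the sources used here, so reads of antisense partners may be included. All 73 pairs of libraries of a group differed by more than counting error.

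The 10 genes are always named. Each pathway list is represented by its top 2 called genes in each direction per diet, where mean log2 CPM was no lower than 1, and likeness by the 5 genes closest to Mapt and the closest to each other gene, given a mean log2 CPM of at least 3. Some genes that this rule picks are not reported here. The members and the lists were chosen with earlier results of these data known.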

Additional observations from a re-analysis of the deposited data

Results flagged for a closer look

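In male ValR the level of Ttbk1 in library 12 was 156 CPM, apart from the other 3 libraries at 173 to 176 CPM (gap over range 0.860, above Dixon's limit of 0.829 for 4 values). In female LeuR the ratio of Gsk3a to Gsk3b in library 47 was 3.42, above the next at 2.87 (gap over range 0.734, above 0.625 for 6 values). These were 2 of the 78 groups of values examined, and chance alone places about 1 in 20 groups beyond the limit. The change under ValR differed between males and females by -1.52 on the log2 scale for Cdk5r1 and by -1.53 for Cdk5r2 (adjusted p = 0.0329 and 0.0434, interaction in edgeR's quasi-likelihood test). In the fit that included the hindbrain score both values were above 0.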

How the results depend on the processing

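No paired analysis was possible because the labels do not say which libraries came from littermates or cage mates. With the hindbrain score as a covariate 0 of the 10 genes passed in males under IleR, LeuR and ValR (6, 4 and 7 without it), and Cdk5r1 turned to 0.053 under IleR and 0.29 under ValR. In the same fit the differences between the sexes under ValR turned to 0.12 for Cdk5r1 and 0.14 for Cdk5r2, and 0 differences passed. With the neuron minus oligodendrocyte score 0, 0 and 2 genes passed. A fit of only the 2 groups compared gave 0 under LeuR, with fewer libraries to estimate the spread. For the difference between the sexes (2 passed), upper-quartile scaling gave 1, DESeq2 4, limma voom 0, no filter on low counts 1, the neuron minus oligodendrocyte covariate 1 and the female libraries of a hindbrain score under -2 only 5. This last setting, chosen after the scores were seen, leaves out the lowest Cdk5r1 and Cdk5r2 library of each female group, so it narrows the female spread by construction. Over all genes, the number lower in males under ValR was 803 in the main fit, 618 with upper-quartile scaling and 1558 with DESeq2. It was 25 with limma voom, 503 with no filter, 534 with the neuron minus oligodendrocyte covariate and 1484 with this last setting. Under IleR it was 22 in the main fit, 888 with DESeq2 and 1157 with this last setting. The number of genes related to the neuron minus oligodendrocyte score in females was 6 without the 2 farthest libraries (3 with them). The cause of these shifts was not tested. Leaving out each library in turn gave 3 to 7 genes for male IleR (lowest without IleR 17), 1 to 6 for LeuR (1 without LeuR 19, 2 without Control 1 or 3, 6 without Control 4), 5 to 7 for ValR, 0 to 1 for the male pairs (1 without Control 4) and 0 to 5 for the difference between the sexes, which gave 5 without male Control 4 or female IleR 41. Counts for the females were 0 in every such fit, while the 0 of the male ratios says nothing of stability, since so few libraries keep the exact p near the threshold before adjustment.

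Library totals alone, in place of TMM, moved the median log2 fold change of all genes from 0.04 to 0.17 under male IleR. Higher genes were then 62.5%, 53.2% and 59.5% of those called under IleR, LeuR and ValR (43.3%, 37.6% and 47.4% with TMM), and the 10 genes had 5, 3 and 5 calls, all lower. Of 3240 comparisons of a member with its alternative, 3081 stayed on the same side of the threshold, 131 lost and 24 gained a call, and 4 called values changed sign. Male groups held 3 or 4 libraries, which limits the precision: the 95% intervals of Mapt and Gsk3b against Control included 0 under each diet.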
